A study of Sus scrofa domesticus with 4 samples.

Results

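EEF1A1 and EIF4A2 encode 2 factors of protein synthesis, and their transcripts were measured in explants of pig uterine smooth muscle with orexin A (OXA) or without it. They are 2 of the 3029 genes that could be named on the array. All probes designed on the RefSeq transcript NM_001097418 (EEF1A1) or NM_001100195 (EIF4A2) were taken, which gave 18 probes for EEF1A1 and 13 for EIF4A2. Both genes were chosen by their log2 ratios of OXA-treated over non-treated tissue on these same arrays, so the ratios and the signals behind them are given as a description with no test.

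The OXA-treated group was myometrium from the middle of the uterine horns of Large White x Polish Landrace gilts, 7 to 8 months old and on days 15 to 16 of gestation, incubated for 24 h with OXA. The non-treated group was myometrium of the same kind incubated as long without OXA. Both groups were kept in serum-containing medium after 2 h of preincubation, and tissue came from 4 gilts in 4 experiments. The sample labels give 10 nM OXA and the series' design text gives 10 µM. Each of 4 two-colour Agilent arrays held RNA of both groups, and per the sample labels OXA was in Cy5 on arrays 1 and 3, while on arrays 2 and 4 it was in Cy3. The labels do not say whether both channels of an array came from 1 gilt, or whether duplicate cultures were pooled. Explants hold every cell type of the tissue piece, so fewer cells of a type and less RNA per cell cannot be told apart.

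eEF1A1 is the elongation factor that, bound to GTP, brings each aminoacyl-tRNA to the ribosome. Its transcript is among the most abundant of most tissues and belongs to the 5′ TOP class, whose translation depends on mTORC1. eIF4A2 is a DEAD-box RNA helicase that, with the cap-binding protein eIF4E and the scaffold eIF4G, forms eIF4F and unwinds the leader of a transcript before the ribosome scans it. eIF4A1 is its near-identical paralogue, eIF4A3 serves the exon junction complex instead, and PDCD4 binds eIF4A and blocks its helicase.

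Of the 43603 probes, 39.9% to 49.7% exceeded background clearly in OXA-treated myometrium and 41.5% to 61.1% in non-treated myometrium, depending on the array. All 7 smooth muscle markers that could be named, desmin and calponin 1 (CNN1) among them, were well above background. The direction of the arrays is not settled. Over 19500 tested probes the log2 ratios (OXA-treated over non-treated, as labelled) gave r = -0.379 between arrays 2 and 4, although both have OXA in Cy3, and r = -0.591 between arrays 1 and 2, against r = 0.618 between arrays 1 and 4. The labelling protocol also words OXA as Cy5 throughout, against the sample labels. Values are therefore given as labelled, and the main ones also with the sign of array 2 turned and for OXA always in Cy5.

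With the dyes as labelled, EEF1A1 had negative log2 ratios on all 4 arrays. The medians of its 18 probes were -0.72, -0.41, -0.42 and -0.53 on arrays 1 to 4, which averaged -0.52 ± 0.14 (SD, n = 4 arrays), or 1.43-fold less signal with OXA. EIF4A2 averaged nearly the same, -0.54 ± 1.20 (SD, n = 4), from array values that went both ways. The medians of its 13 probes were -1.12 on array 1, 1.03 on array 2, -0.32 on array 3 and -1.76 on array 4. The like means thus came from 4 values of 1 sign for EEF1A1 and from opposite signs for EIF4A2, whose spread over arrays exceeded its mean. If the protocol's wording held and OXA was always in Cy5, EEF1A1 averaged -0.05 ± 0.61 and EIF4A2 -0.18 ± 1.34 (SD, n = 4), with both signs among the arrays of each gene, and OXA and dye cannot then be told apart.

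**Figure D1:**
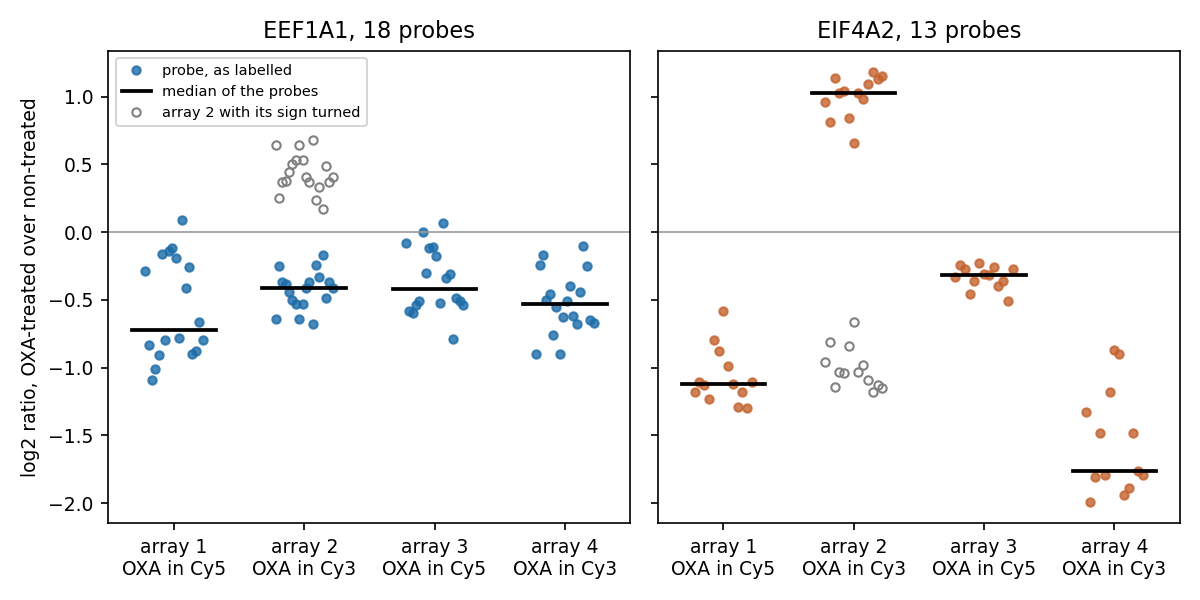
Log2 ratio of OXA-treated over non-treated myometrium for each probe of EEF1A1 (left) and EIF4A2 (right) on arrays 1 to 4. Filled points are probes as labelled, bars are medians over probes (EEF1A1 -0.72, -0.41, -0.42 and -0.53, EIF4A2 -1.12, 1.03, -0.32 and -1.76), and open grey points are array 2 with its sign turned.

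The signals behind these ratios were far from the background in both groups. All 18 EEF1A1 probes and all 13 EIF4A2 probes exceeded background clearly in both channels of every array, and 0 of their spots were saturated or carried an outlier flag. The brightest EEF1A1 probe, A_72_P723598, had processed signals of 151961, 86853, 118022 and 157515 in OXA-treated myometrium, against 165060, 125617, 127783 and 243822 in non-treated myometrium, on arrays 1 to 4. The OXA-treated signal was the lower of the pair on each array, while the groups overlapped when taken across arrays. The brightest EIF4A2 probe, A_72_P570849, had 10881, 20001, 13959 and 7757 in OXA-treated myometrium, against 23864, 9084, 16832 and 27112 in non-treated myometrium. On array 2 the non-treated signal was the lowest of its group and the OXA-treated signal the highest of its own, and the groups overlapped.

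**Figure D2:**
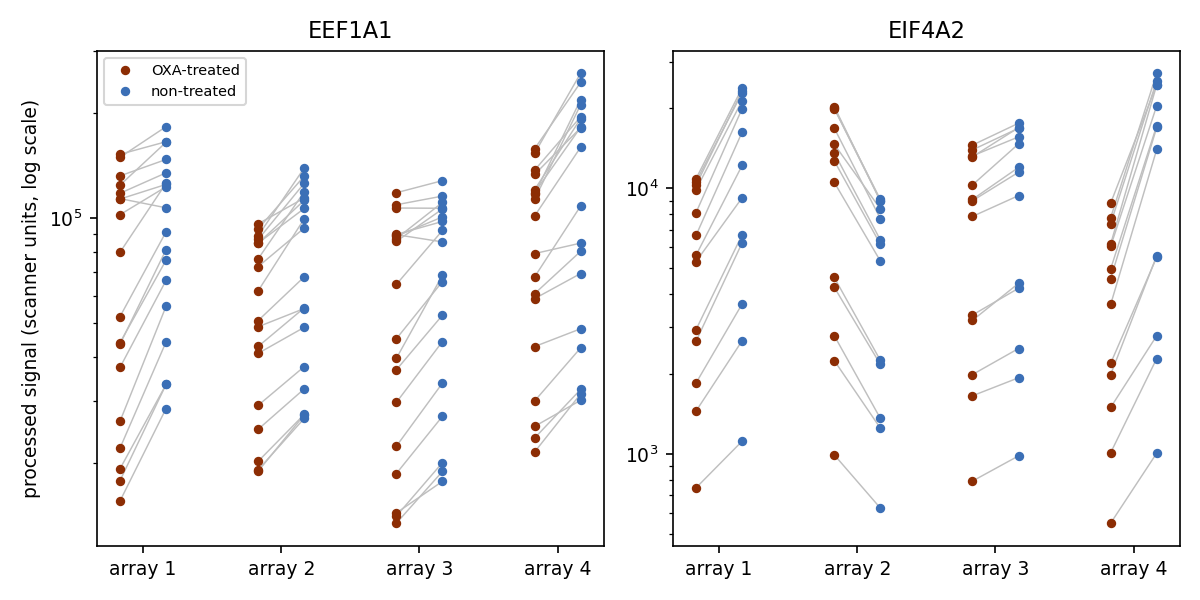
Processed signal (scanner units, log axis) of each EEF1A1 probe (left) and EIF4A2 probe (right) in OXA-treated and non-treated myometrium on arrays 1 to 4, with a line joining the channels of 1 spot. EEF1A1 lines run upward to the non-treated channel on nearly every spot, and EIF4A2 lines do so on arrays 1, 3 and 4 and run downward on array 2.

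For the elongation factor EEF1A1, 17, 18, 16 and 18 of 18 probes had negative ratios on arrays 1 to 4, beside 49.8%, 52.8%, 49.8% and 49.5% of all tested probes. Of the 18 probes, 16 were negative on all 4 arrays, 1 was negative on 3 arrays with 0.00 on array 3, and 1 was negative on 2. Among all tested probes, 3.76% were negative on all 4 arrays. Since the genes were picked for these ratios and the 18 probes share 1 transcript, nothing is read from the difference. The probe means ran from -0.61 (A_72_P721018) to -0.29 (A_72_P727574). A_72_P721018 had -1.01, -0.38, -0.54 and -0.50 on arrays 1 to 4. A_72_P727574, the least negative, had 0.09, -0.68, 0.07 and -0.62, so its sign followed the dye orientation.

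The EEF1A1 probes fell into 2 patterns that went with scanner brightness, which differs between probes of 1 transcript and is not a transcript level. What sets the brightness of a probe was not tested. The split by brightness was made after the values were seen. The 9 dimmer probes, with geometric mean signals of 21406 to 65999, had medians of -0.88, -0.38, -0.54 and -0.40 on arrays 1 to 4. The 9 brighter probes, at 94813 to 141255, had -0.19, -0.50, -0.12 and -0.65. The mean ratio on arrays with OXA in Cy5 minus that on arrays with OXA in Cy3 had a median of -0.32 over the dimmer probes (from -0.71 to -0.01) and 0.46 over the brighter ones (from -0.07 to 0.73). All 9 dimmer and 7 of the 9 brighter probes were negative on all 4 arrays. A part of the dye in these patterns was not tested. With normexp background correction and loess normalization in place of the deposited ratios, the EEF1A1 median on array 4 was -0.91 instead of -0.53. The medians on arrays 1 to 3 were -0.63, -0.46 and -0.32, and the mean over arrays was -0.58. The probes then ran up to 0.17 on array 1 and 0.32 on array 3, and stayed negative on arrays 2 and 4. The brightest probe, A_72_P723598, had 0.06, -0.71, 0.16 and -1.05. Fewer probes were thus negative on all 4 arrays, so that count depended on the normalization.

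**Figure D3:**
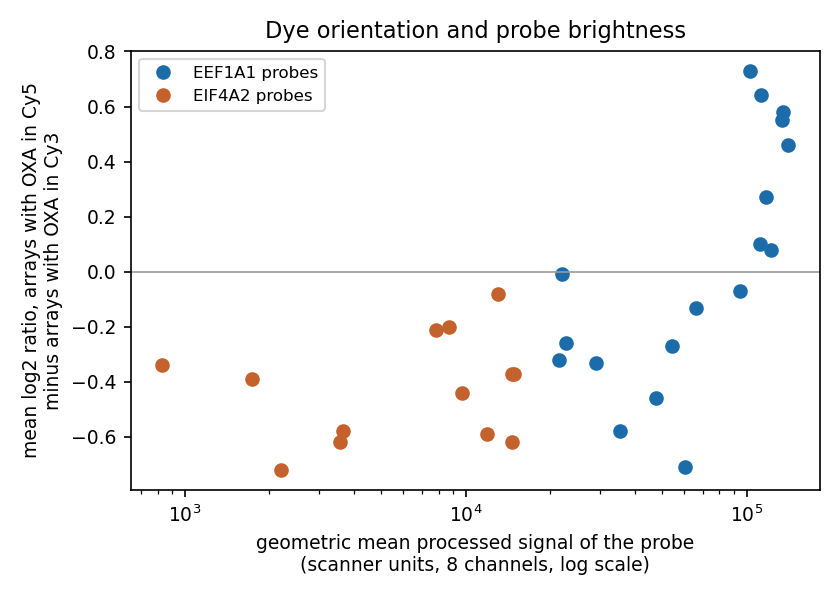
For each EEF1A1 and EIF4A2 probe, the mean log2 ratio on the arrays with OXA in Cy5 minus that on the arrays with OXA in Cy3 (vertical axis) against the geometric mean of its processed signal over all arrays and channels (scanner units, log axis). The brighter EEF1A1 probes lie between -0.07 and 0.73, the dimmer ones between -0.71 and -0.01, and the EIF4A2 probes between -0.72 and -0.08.

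For the helicase EIF4A2, all 13 probes moved together on every array. Their ratios ran from -1.30 to -0.58 on array 1, from 0.66 to 1.18 on array 2, from -0.51 to -0.23 on array 3 and from -1.99 to -0.87 on array 4. The median ratios are 2.18-fold, 1.25-fold and 3.38-fold lower signals with OXA on arrays 1, 3 and 4 and a 2.05-fold higher signal on array 2. The sign pattern of the 13 probes, negative on all arrays but the second, was also that of 17.8% of all tested probes. Probe means ran from -0.63 (A_72_P569109) to -0.28 (A_72_P580927). A_72_P569109 had -1.11, 0.81, -0.24 and -1.99 on arrays 1 to 4. A_72_P580927, the dimmest at a geometric mean signal of 830, had -0.58, 0.66, -0.31 and -0.87, smaller on arrays 1, 2 and 4 and in the same order of arrays.

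Of 38 named genes with at least 10 tested probes, 5 had probes of a single sign within each of the 4 arrays, EIF4A2 among them and EEF1A1 not. The SD over the probes of a gene, as the median over arrays, was 0.18 for EIF4A2 and 0.24 for EEF1A1, against a median of 0.20 over the 38 genes. The SD over arrays was 1.20 for EIF4A2 and 0.14 for EEF1A1, against a median of 0.53 over all 1985 named genes with a tested probe. EIF4A2 thus varied far more between arrays than between its own probes. Over the 38 genes the median SD was 0.40 over arrays and 0.20 over probes, so a larger spread between arrays was not particular to EIF4A2. Probe by probe, the SD over arrays had a median of 1.19 for EIF4A2 and 0.27 for EEF1A1.

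Turning array 2 exchanged which of the genes had 1 sign throughout. EIF4A2 was then negative on all 4 arrays with all 13 probes, at -1.06 ± 0.59 (SD, n = 4), and EEF1A1 averaged -0.31 ± 0.50 with 0 of 18 probes negative on all 4. Without array 2, EIF4A2 averaged -1.07 and EEF1A1 -0.55 over the other 3 arrays. EIF4A2 averaged -0.35 without array 1 and -0.14 without array 4, both nearer to 0 than its mean over 4 arrays by more than 1.5 times. As labelled, EEF1A1 had the 40th lowest mean and EIF4A2 the 33rd lowest among the 1985 named genes, while with array 2 turned they were 237th and 19th. The list of named genes had its own shift, with medians of 0.27, -0.32, 0.04 and 0.33 on arrays 1 to 4, against 0.00, -0.05, 0.00 and 0.01 over all tested probes. On each array EIF4A2 lay on the opposite side of 0 from the median named gene.

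With the dyes as labelled, the other genes of the translation machinery had means of both signs in nearly equal number. limma called 0 of 19500 probes at an adjusted p under 0.05 (0.0% of those tested), with 234 probes (1.2%) at an unadjusted p under 0.05. Of 95 gene names listed for translation factors and their regulators, 17 had a tested probe, and 0 of the 17 were called in either direction. As labelled, 9 had positive and 8 had negative means. Their median averaged 0.04 ± 0.31 (SD of the array medians, n = 4), beside -0.01 over all tested probes and 0.08 over the 1985 named genes. The split depended on the direction of the arrays. With array 2 turned, 13 means were positive and 4 negative, with a median of 0.23. For OXA always in Cy5, 12 were positive and 5 negative, with a median of 0.06. The median named gene had 0.27, -0.32, 0.04 and 0.33 on arrays 1 to 4, so turning array 2 raises named genes in general. The same counts over all named genes were not made, and nothing is read from the split. With array 2 turned limma called 0 probes as well (0.0%), with 5263 (27.0%) at an unadjusted p under 0.05. The turn leaves array 4 alone in its dye orientation, where the dye term fits it exactly. The residual spread of that fit thus came from the other arrays only. Array 2 was also turned after its negative correlations in these data were seen, which favours agreement in advance. For these reasons nothing is read from the 27.0%.

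Among partners of eIF4A2 in and around eIF4F, EIF4A1 had log2 ratios of 0.16, -0.66, -0.03 and 0.59 on arrays 1 to 4, a mean of 0.01 ± 0.52 (SD, n = 4). These were opposite in sign to EIF4A2 on arrays 1, 2 and 4, and the array medians of EIF4A2 minus those of EIF4A1 were -1.29, 1.70, -0.29 and -2.35. The exon junction helicase EIF4A3 had medians of 0.30, -0.41, 0.19 and 0.81, opposite to EIF4A2 on every array, as was the median named gene. On array 2 its 2 probes disagreed, with 0.08 for the brighter, A_72_P088651, and -0.89 for A_72_P446337. EIF4G1, the scaffold that joins eIF4E to eIF4A, had 1.40, 0.04, 0.18 and 1.47, all positive, with a single probe. EIF4E2, a cap-binding relative of eIF4E, had 0.72, -1.13, 0.39 and 0.49 with its single probe. PDCD4, the eIF4A inhibitor, had -0.83, 0.21, -0.03 and -1.63 with its single probe. These were the signs of EIF4A2, which 17.8% of all tested probes had. These 5 genes each had an adjusted p of 0.998 in limma.

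**Figure D4:**
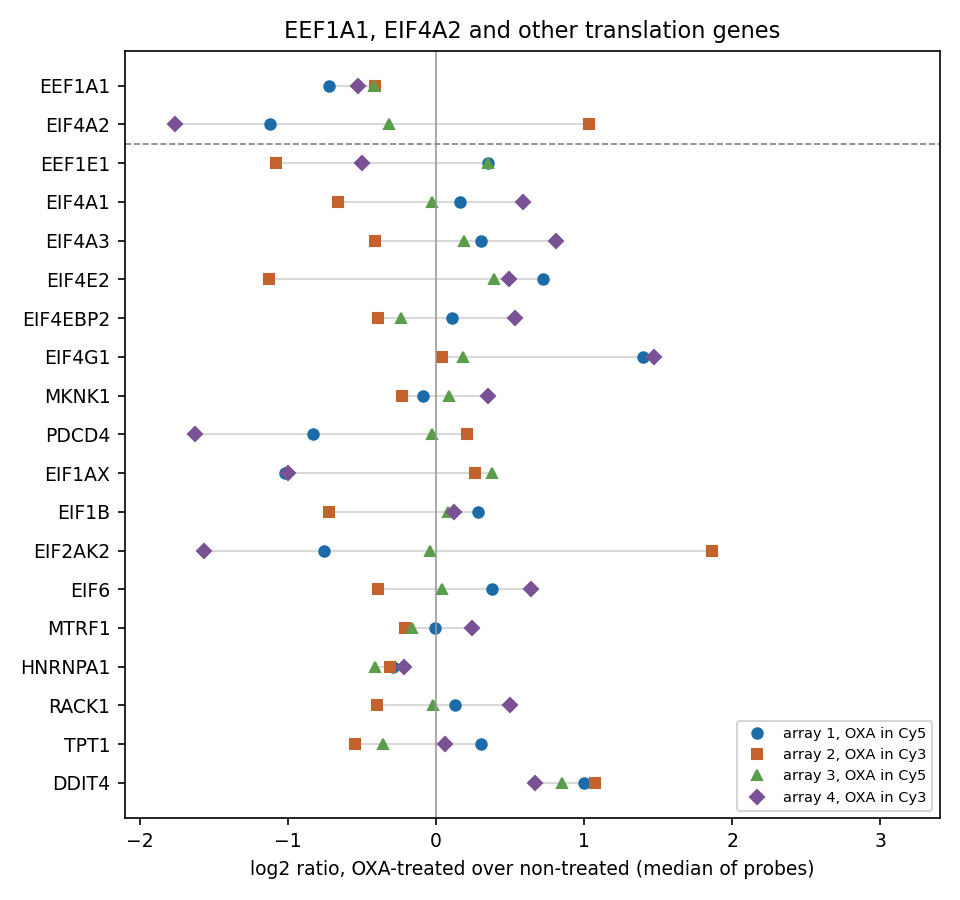
Log2 ratio of OXA-treated over non-treated myometrium on arrays 1 to 4 (median over the probes of a gene) for EEF1A1 and EIF4A2, above the dashed line, and for the 17 other translation genes with a tested probe. EEF1A1 spans -0.72 to -0.41 and EIF4A2 -1.76 to 1.03, and HNRNPA1 and DDIT4 are the other genes whose 4 values, as labelled, lie close together on 1 side of 0.

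Of the initiation factors outside eIF4F, EIF1AX, which aids start codon recognition, had -1.02, 0.26, 0.38 and -1.0 with its single probe. EIF2AK2, the interferon-induced kinase PKR that phosphorylates eIF2α, had -0.76, 1.86, -0.04 and -1.57 with its single probe. These were the signs of EIF4A2 and of 17.8% of all tested probes. EIF6, which keeps ribosomal subunits apart, had 0.38, -0.39, 0.04 and 0.64, and EIF1B had 0.28, -0.72, 0.08 and 0.12. The medians of both had the opposite signs, which are also those of the median named gene. On array 3 the brightest probe was negative for each, at -0.08 for EIF6 and -0.17 for EIF1B. On array 1 that of EIF1B had -0.01. The mitochondrial release factor MTRF1 had -0.01, -0.21, -0.16 and 0.24.

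Fewer genes stand beside EEF1A1. EEF1E1, an auxiliary protein of the tRNA synthetase complex, had 0.35, -1.08, 0.35 and -0.50 with its single probe, and it was the 1 listed elongation partner with a tested probe. Of the 5′ TOP transcripts other than those of ribosomal proteins, HNRNPA1, an RNA-binding splicing protein, had negative medians on all 4 arrays, like EEF1A1. They were -0.29, -0.31, -0.41 and -0.22 (mean -0.31 ± 0.08, SD, n = 4). On array 4 its 4 probes split, with -0.49 and -0.49 against 0.07 and 0.05. TPT1, which encodes the translationally controlled tumour protein, had 0.30, -0.55, -0.36 and 0.06 over 17 probes, and RACK1, a scaffold on the small ribosomal subunit, had 0.13, -0.40, -0.02 and 0.50. DDIT4, which inhibits mTORC1, had 1.00, 1.07, 0.85 and 0.67 (mean 0.90 ± 0.18, SD, n = 4), positive on all 4 arrays as labelled. With array 2 turned, HNRNPA1 averaged -0.15 ± 0.32 and DDIT4 0.36 ± 0.96 (SD, n = 4), and neither kept 1 sign on all 4 arrays. As labelled, negative ratios on all 4 arrays were found in 3.22% of named genes and positive ones in 4.79%. In limma these genes and the initiation factors above each had an adjusted p of 0.998. Before adjustment, the 4 DDIT4 probes, which share 1 transcript, had a limma p under 0.05, beside 1.2% of all tested probes. The other genes had 0 such probes.

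The pattern over the 4 arrays was compared with that of 1984 other named genes by the root mean square difference of the log2 ratios. Nearest to EEF1A1 were TCEAL2 at 0.13, the phosphatase subunit PPP1CC at 0.16, the apoptosis inhibitor API5 at 0.17, the peroxisomal enzyme PHYH at 0.17 and the chitinase-like protein CHI3L1 at 0.18. HNRNPA1 was 18th at 0.27, and EIF4A2 was 1392nd at 0.97. Nearest to EIF4A2 were MUC19 at 0.21, the splicing protein SRSF11 at 0.26, the actin-severing protein destrin (DSTN) at 0.28, DMP1 at 0.29 and the chromatin protein HMGB1 at 0.31. SRSF11, with 9 probes, had -1.23, 1.27, -0.08 and -1.37, and HMGB1, with 16 probes, had -1.30, 0.81, -0.03 and -1.30. PDCD4 was 34th in likeness to EIF4A2, at 0.46. These distances rest on 4 arrays each.

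Markers of other cells also differed between the channels of an array. The 8 measured macrophage markers of 11 listed had medians of 0.74, -0.88, 1.74 and 0.73 on arrays 1 to 4. These were opposite in sign to EIF4A2 on each array, as was the median named gene. CD163 among them had -0.54, 0.21, 0.85 and -0.44, with the signs of EIF4A2 on arrays 1, 2 and 4. Their summed signal ran from 1376 to 10101 in OXA-treated myometrium and from 1601 to 5667 in non-treated myometrium, with LYZ not well above background. The 4 measured markers of uterine epithelium, of 9 listed, had medians of -1.46, 2.06, -1.05 and 2.02, with summed signals of 82 to 8058 in OXA-treated myometrium and 199 to 2052 in non-treated myometrium, and CLDN4 not well above background. These went with the sign of EIF4A2 on arrays 1, 2 and 3 and against it on array 4. As labelled, the epithelial medians were negative with OXA in Cy5 and positive with OXA in Cy3, and a part of the dye was not tested. KRT8 among these markers had 0.36 on array 1. The 7 smooth muscle markers, of 11 listed, had medians of -0.44, -0.39, 0.19 and -0.13, with the signs of EEF1A1 on arrays 1, 2 and 4. Their summed signal was 285405 to 644920 in OXA-treated myometrium and 275706 to 779224 in non-treated myometrium. The 3 measured markers of fibroblasts and stroma, of 6 listed, had medians of -0.17, -0.43, 0.16 and -0.50, also with the signs of EEF1A1 on arrays 1, 2 and 4, and summed signals of 40563 to 51064 in OXA-treated and 45591 to 71630 in non-treated myometrium. The 4 measured endothelial markers, of 6 listed, had medians of -0.33, -0.52, 0.37 and 0.77, with the signs of EEF1A1 on arrays 1 and 2, and summed signals of 3255 to 9734 in OXA-treated and 4188 to 7649 in non-treated myometrium. The part of these cells in the ratios of EEF1A1 and EIF4A2 was not tested.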

How the data were processed

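Each of 4 arrays held OXA-treated and non-treated myometrium in opposite dyes. Per the file headers, the authors' scanner files were written by Agilent Feature Extraction 10.7.3.1 and hold spot and background intensity, processed signal intensity after background subtraction and dye normalization, and a log10 ratio, Cy5 divided by Cy3. The deposited value table holds log2 ratios. Set against the scanner values, at least 99.86% of tested probes lay within 0.001 with a slope of 1 in the direction OXA-treated over non-treated. Its column medians over non-control probes were 0.10, 0.10, -0.19 and 0.07 on arrays 1 to 4, and no centring was found. The arrays share 1 slide and 1 scan.

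Ratios were taken from that table and levels from the processed signals. A probe was tested if 1 of the treatment groups had it well above background on 3 or 4 arrays. RefSeq accessions, without versions, named 6700 of 43603 probes through a gene table of assembly Sscrofa11.1. A gene's value was the median of its tested probes on an array. limma 3.58.1 in R 4.3.3 fitted terms for OXA and dye (2 residual degrees of freedom), with two-sided tests and Benjamini-Hochberg adjustment over all tested probes, after a run on simulated data. The 4 arrays limit the precision. The p-values measure the spread between these arrays. limma draws each probe's variance toward that of all tested probes, with 4.1 prior against 2 residual degrees of freedom. The probes named singly are the brightest, lowest and highest of each gene, and of each list up to 4 genes with the largest means. The genes, lists and alternatives were chosen with earlier results of these data known. No probe sequences were used here, so uptake of paralogues such as EEF1A2, which had no named probe, was not tested.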

Additional observations from a re-analysis of the deposited data

Results flagged for a closer look

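Dixon's ratio was taken for 98 sets of values on arrays 1 to 4, and 3 sets held a value far from the rest, where chance alone gives about 5%. The EEF1A1 probe A_72_P721093 had -0.91 on array 1, against -0.51 to -0.44 elsewhere. PHYH, among the genes nearest to EEF1A1, had -0.15 on array 3 and -0.53 to -0.48 elsewhere. TYROBP, a macrophage marker, had -0.91 on array 2, where the remaining arrays gave 0.69 to 0.99.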

How the results depend on the processing

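The alternatives were normexp with loess, ratios of the processed signals, centring of columns, no filter or a stricter one on dim probes, OXA in Cy5 on all arrays, array 2 turned, leaving out each array, the brightest probe of a gene, and for the count of calls no dye term. Every probe of EEF1A1 and EIF4A2 passed either filter, so the filter alternatives returned the main values of -0.52 and -0.54 by construction. Ratios of the processed signals gave these values too. EEF1A1 was negative in all 12 of its alternatives, at -0.58 to -0.45 in 9 of them, these settings included. It was -0.05 with OXA in Cy5 on all arrays, -0.31 with array 2 turned and -0.35 with its brightest probe, and -0.55 to -0.45 when 1 array was left out. EIF4A2 was negative in all 12, from -1.07 to -0.14, with -0.18 for OXA in Cy5 on all arrays. Each lay within its SD over arrays, 1.20, of -0.54, a width that also takes in positive ratios and so tells little. Its lowest and highest values came from leaving out arrays 2 and 4. The translation genes' median stayed between -0.06 and 0.23. The count of called probes was 0 in 8 alternatives. Without 1 array it was 1 to 1093 probes, with 1093 without array 2 (259 higher and 834 lower), 1 without array 1, 5 without array 3 and 6 without array 4. Those fits had 1 residual degree of freedom, with 1 array alone in its dye orientation. limma gave every probe the same variance there, so a probe's own spread between arrays was not used. If OXA was always in Cy5, its effect and the dye's cannot be told apart. No paired analysis was possible because no block remained to add, the ratio within each array being itself the comparison of the 2 channels that share a replicate number. Centring moved the ratios of arrays 1 to 4 by the column medians, up to 0.19 on array 3.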
